A study of Homo sapiens with 25 samples.

Results

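The mRNAs that encode translation elongation factors and their close partners were followed in RNA co-purified with the RNA-binding protein IGF2BP1. The set was chosen by name and holds 7 genes, EEF1A1, EEF1B2, EEF1D, EEF1E1, EEF1G, EEF2 and TPT1, out of 63086 genes counted and 20044 protein-coding genes. Of these, 5 passed the filter on low levels and were tested among 8734 genes. RIP-seq had been done with RFP-Trap beads, which capture the red fluorescent protein mCherry, in HCT116 cells, a human colorectal carcinoma line. All mCherry groups shared 1 background, with knockouts of IGF2BP2 and IGF2BP3 and the auxin receptor construct Tet-OsTIR1-PURO. The fusion was wild-type IGF2BP1 or a mutant of it, S181E, Y396E or RQ. S181E and Y396E mimic phosphorylation in disordered linker 1 and linker 2, and RQ replaces arginines of an RGG motif in linker 1 with glutamine. The fusions came from lentiviral transduction, and the lines were populations sorted in a narrow mCherry gate, not clones. Cells received PBS as control or 500 µM sodium arsenite, an oxidative stressor, for 2 h. Each line and treatment had 3 libraries from separately plated dishes, except RQ in arsenite with 2. Parental HCT116 cells without the fusion or the knockouts gave 1 library per treatment as the background of the beads.

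Elongation factor eEF1A, encoded by EEF1A1, delivers aminoacyl-tRNA to the ribosome and is left bound to GDP. The eEF1B complex, with the subunits encoded by EEF1B2, EEF1D and EEF1G, exchanges that GDP for GTP. The factor eEF2 then moves the tRNAs and the mRNA along by a codon. EEF1E1 encodes a scaffold of the multi-tRNA synthetase complex, and TPT1 encodes TCTP, a protein that binds elongation factors. Many mRNAs of the translation machinery begin with a C followed by a run of pyrimidines, the 5′ terminal oligopyrimidine (TOP) motif, through which mTOR and LARP1 control their translation.

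Because the set was described as TOP mRNAs, the annotated starts are shown first. The set of RefSeq starts used, on GRCh38.p14, held 7 starts for 6 of the members. EEF1D had no entry in that set, so its start was not examined. Each line holds the 10 bases before the start and 20 bases from it, on the strand of the transcript. Capitals mark the pyrimidine run at the start or, where the start has none, the longest run near it.
EEF1A1: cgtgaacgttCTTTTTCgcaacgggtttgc
EEF2: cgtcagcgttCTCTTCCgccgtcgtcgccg
TPT1: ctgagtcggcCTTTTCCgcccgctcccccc
EEF1B2, second start: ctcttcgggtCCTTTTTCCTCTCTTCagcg
EEF1B2, first start: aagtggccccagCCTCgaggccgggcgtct
EEF1G: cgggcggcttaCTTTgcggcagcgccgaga
EEF1E1: tgcaggtCTCgcgtctgccaggagctacgg
The windows lie at chr6:73521013-73521042 (minus strand) for EEF1A1, chr19:3985444-3985473 (minus) for EEF2 and chr13:45341164-45341193 (minus) for TPT1. Those of EEF1B2 lie at chr2:206159885-206159914 and chr2:206159599-206159628 (plus). The EEF1G window is chr11:62573872-62573901 (minus) and the EEF1E1 window chr6:8102529-8102558 (minus).

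The starts of EEF1A1, EEF2 and TPT1 each opened with a run of 7 pyrimidines that began with C. The second start of EEF1B2 opened with a run of 16. At its first start, and at that of EEF1G, the first base was A, and the nearest run had 4 bases. EEF1E1 began with G, and its longest run nearby had 3 bases. The motif searched was an unbroken run of at least 5 letters, each C or T, that began with C at the annotated start, read on the strand of the transcript only. It was present at 4 of 7 member starts, at 1429 of 35116 starts of all genes (4.07%), and at 47 of 78 starts of cytosolic ribosomal protein genes (60.3%). A match describes the annotation, and which start was used in these cells was not measured.

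**Figure D1:**
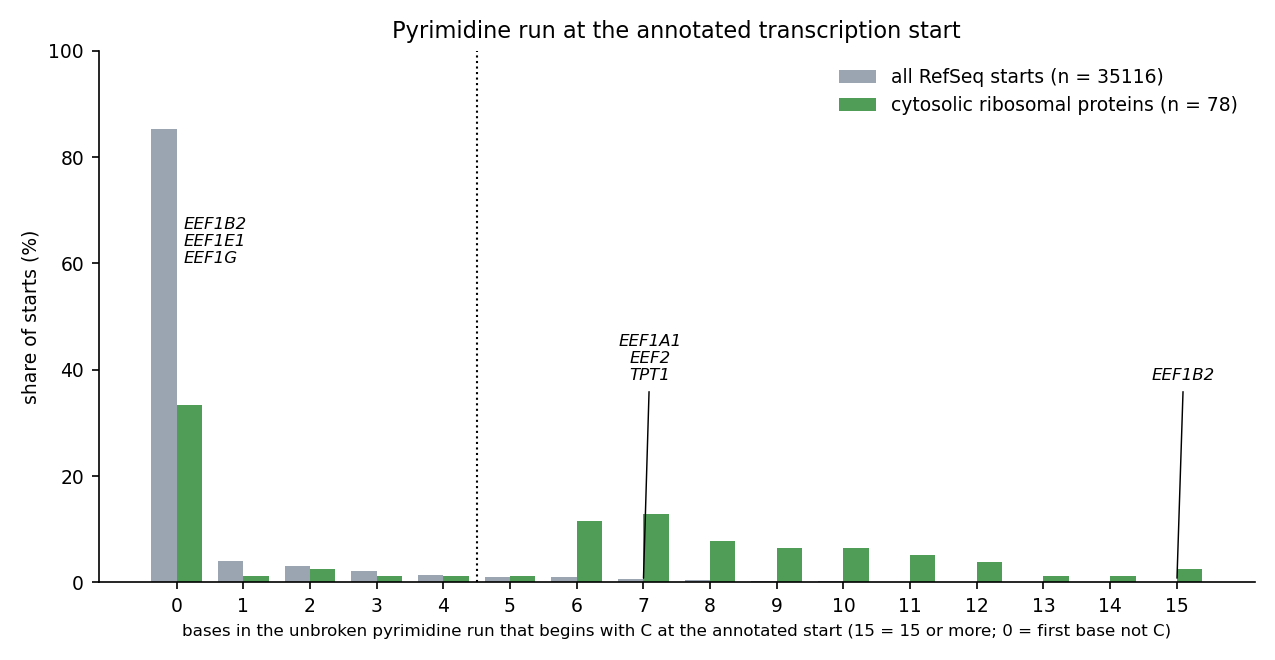
Share of annotated starts (y axis, %) by the length in bases of the pyrimidine run that begins with C at the start (x axis, where 0 means that the first base is not C and 15 stands for 15 or more), for 35116 RefSeq starts in grey and 78 starts of ribosomal protein genes in green. The dotted line marks the minimum of 5 bases, and member names mark their own starts, so EEF1B2 appears at both of its starts.

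Levels are given in CPM, the count scaled to the library's protein-coding total with a TMM factor. They were not divided by the RNA level in the cells, so more of an mRNA in the cells and more of it bound per cell cannot be told apart, and neither can fewer cells. The total count was 22246381 to 60273548 per mCherry library, and the members took 0.742 to 1.04% of the protein-coding counts. The parental control library was shallow, with a total of 1238013, against 18942497 in parental arsenite. Mitochondrial rRNA took 31.8 to 38.2% of the counts in control mCherry libraries and 22.2 to 30.1% in arsenite ones. Of 7 epithelial markers, 5 were detected in all groups, and CEACAM5 and LGR5 were at 0 in all control groups. Of 10 markers of other cells, 7 were detected in the mCherry libraries, at a sum of 1.578 to 14.08 CPM. COL1A2, LUM and PTPRC were at 0 in all mCherry libraries. The sum was 24.3 CPM in the parental control library and 36.96 CPM in the parental arsenite one.

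Per kilobase of the main transcript, EEF2 was the highest member in all 8 mCherry groups, followed by EEF1A1, EEF1B2, TPT1, EEF1D and EEF1E1. In wild-type control libraries the levels were 2038 CPM per kilobase for EEF2, 857.6 for EEF1A1 and 451.0 for EEF1B2. TPT1 had 339.2, EEF1D 49.2 and EEF1E1 4.82 CPM per kilobase. Divided by the length of all annotated exons instead, EEF1B2 came above EEF1A1 and the other places stayed.

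EEF1G and EEF1E1 could not be followed like the rest. The gene EEF1G was listed at 0 counts in all 25 libraries. On the same strand, 1439 of its 1446 exonic bases (99.5%) are shared with the annotated gene ENSG00000255508, and the counting drops reads that fall on 2 genes, so the zeros say nothing about the EEF1G mRNA. EEF1E1 had 53 to 233 counts in the mCherry libraries, or 3.555 to 10.34 CPM, and was below the filter of 10 CPM. Under looser filters its adjusted p in edgeR was 0.249 or more in all 13 comparisons. Genes named as copies of EEF1A1 held 0.413% of its counts, and those of EEF1B2, EEF1D and TPT1 less. Reads that mapped to several places had been left out, so these shares cannot show how many reads a member lost to its copies. That loss was not measured.

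The linker mutants were compared with wild-type within each treatment to ask whether the linkers change which mRNAs come down with IGF2BP1. In control conditions EEF2, the translocase mRNA, fell in both phosphomimetic lines, EEF1D fell in S181E, and TPT1 fell in Y396E. In arsenite EEF2 fell and EEF1A1 rose in Y396E, and no member was called in S181E or RQ. Calls needed an edgeR adjusted p under 0.05 together with a change of over 20%, and comparisons within a treatment share the wild-type libraries. In S181E control, 2 of 5 tested members were lower, where 8% of all tested genes were lower and 12.8% higher. In Y396E control, 2 of 5 were lower, against 12.7% of all genes lower and 16.2% higher. In RQ control, 0 of 5 were called, against 2.83% lower and 3.51% higher, with 1 member at an unadjusted p under 0.05 in edgeR and 1 called by DESeq2. With so few members, these shares are descriptions of the set. Of the 5 tested epithelial markers, 1 was higher in Y396E control and 3 in Y396E arsenite, and their part in the results was not tested.

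In arsenite, 0 of 5 members were called in S181E, where 5.34% of all genes were lower and 2.2% higher, with 1 member at an unadjusted p under 0.05 in edgeR and 0 called by DESeq2. In Y396E, 1 of 5 was lower and 1 higher, against 19.4% of genes lower and 13.1% higher. In RQ, 0 of 5 were called, against 0.218% and 0.286%, with 1 at an unadjusted p under 0.05 and 0 by DESeq2. The median log2 fold change of the tested members was -0.32 in S181E control and -0.22 in Y396E control, where that of all tested genes was 0.05 in both. It was 0.03 in RQ control (0.03 for all genes), -0.09 in S181E arsenite (0.01), 0.19 in Y396E arsenite (0.01) and 0.18 in RQ arsenite (-0.01).

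EEF2 lies at chr19:3976056-3985463 (minus strand, hg38; ENSG00000167658.16). In control libraries its level was 6767, 5670 and 6873 CPM for wild-type, and 3529, 3218 and 3486 CPM for Y396E. The groups lay far apart, with every Y396E library below every wild-type one. S181E libraries had 4649, 4276 and 4937 CPM, also all below wild-type and all above Y396E. RQ libraries had 5798, 4814 and 5272 CPM and overlapped with wild-type. The log2 fold change against wild-type was -0.90 ± 0.10 (SE; edgeR adjusted p = 9.04e-07) in Y396E, which placed EEF2 at the 1.76 percentile of all tested genes. It was -0.47 ± 0.10 (edgeR adjusted p = 0.00211) in S181E and -0.28 ± 0.10 (edgeR adjusted p = 0.100) in RQ. The Y396E value was called under every alternative run, between -1.09 and -0.63. The S181E call was lost when only the 2 groups compared were fitted (adjusted p = 0.0516), and RQ passed without wild-type control replicate 2 (-0.37, edgeR adjusted p = 0.0324).

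After arsenite, EEF2 was at 6574, 6103 and 6452 CPM in wild-type and at 4587, 4680 and 5026 CPM in Y396E. These groups did not overlap either. S181E had 5460, 5279 and 5659 CPM, below wild-type in all 3 libraries, and RQ had 6497 and 6318 CPM, within the wild-type range. EEF2 fell in Y396E by 0.39 ± 0.10 on the log2 scale (SE; edgeR adjusted p = 0.0052), a call that was lost with total-count scaling (-0.17, adjusted p = 0.104). In S181E the log2 fold change was -0.23 ± 0.10 (edgeR adjusted p = 0.208). Over the 8 groups the means ran from 3411 CPM in Y396E control to 6437 CPM in wild-type control, a 1.89-fold range. From the lowest up, the order was Y396E control, S181E control, Y396E arsenite, RQ control, S181E arsenite, wild-type arsenite, RQ arsenite and wild-type control. Only Y396E control and S181E control, and S181E arsenite and wild-type arsenite, were neighbours in this order without overlap of their libraries.

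EEF1A1 (chr6:73489308-73525587, minus strand; ENSG00000156508.19) showed another order of the lines. In control its level was 2845, 3227 and 2963 CPM for wild-type and 3156, 3268 and 2546 CPM for Y396E. These groups overlapped, and the log2 fold change of 0.01 had a 95% interval from -0.21 to 0.23. In arsenite it was 2044, 2201 and 1956 CPM in wild-type and 2632, 2608 and 2378 CPM in Y396E. All Y396E libraries were higher than all wild-type ones, and EEF1A1 rose by 0.33 ± 0.11 on the log2 scale (SE; edgeR adjusted p = 0.0289). The call was lost without wild-type arsenite replicate 1 (adjusted p = 0.0793) or 3 (0.109), without Y396E arsenite replicate 1 (0.0955) or 2 (0.0906), and with TMM factors from the 1532 genes not above their parental level (0.06, adjusted p = 0.713). RQ arsenite, with 2355 and 2703 CPM, also lay above wild-type, at a log2 fold change of 0.30 that did not pass (edgeR adjusted p = 0.420). It passed when only those groups were fitted (0.29, adjusted p = 0.0241). S181E had 2675, 2996 and 2316 CPM in control and 1859, 2103 and 1991 CPM in arsenite, and overlapped with wild-type in both.

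A ratio within a library does not depend on the scaling between libraries. The count of EEF2 divided by that of EEF1A1, a measure chosen after the values were seen, was 2.15 ± 0.34 (SD, n = 3) in wild-type control and 1.16 ± 0.20 in Y396E control. After arsenite it was 3.10 ± 0.28 and 1.88 ± 0.20 (SD, n = 3 each). In both treatments every Y396E library was below every wild-type one, while S181E overlapped with wild-type in both. The 2 parental libraries had ratios of 0.824 and 0.735, below all mCherry libraries. Exact two-sided permutation tests over libraries gave p = 0.1 for Y396E in each treatment, the smallest value that 3 against 3 libraries allow, and 0.2 after adjustment over 10 comparisons.

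The mRNAs of the exchange complex differed from each other. EEF1B2 (chr2:206159585-206162928, plus strand; ENSG00000114942.15), the catalytic subunit, had 345.9, 437.2 and 310.1 CPM in wild-type control and 506.1, 555.5 and 347.6 CPM in Y396E control. Replicate 2 was the highest and replicate 3 the lowest of EEF1B2 in all 4 control groups, and no pair of neighbouring groups in its order was free of overlap. It was called in no comparison of a mutant with wild-type. Its log2 fold changes there were all above 0, from 0.09 in S181E arsenite to 0.45 in RQ arsenite, and with total-count scaling it passed in Y396E in control (0.66, adjusted p = 0.0244) and in arsenite (0.63, adjusted p = 0.0343). In Y396E arsenite it also passed with no filter on low counts (0.41, adjusted p = 0.0475) and when only the 2 groups compared were fitted (0.38, adjusted p = 8.10e-04). EEF1B2 passed in RQ arsenite in such a fit too (0.44, adjusted p = 0.00157). In S181E arsenite its value turned to just below 0 with TMM factors from the genes not above their parental level (-0.012) and without wild-type arsenite replicate 3 (-0.010), and it was called in neither. The group means ran from 238.3 CPM in wild-type arsenite to 469.7 CPM in Y396E control, 1.97-fold.

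EEF1D (ENSG00000104529.19), another exchange subunit, had 101.9, 109.8 and 96.6 CPM in wild-type control and 59.5, 95.5 and 48.3 CPM in S181E control. The groups did not overlap, but S181E replicate 2 was nearly at the wild-type level. EEF1D fell in S181E by 0.60 ± 0.19 on the log2 scale (SE; edgeR adjusted p = 0.0256). That call was lost without wild-type control replicate 1 (adjusted p = 0.0528) or 2 (0.0653), without S181E control replicate 1 (0.106) or 3 (-0.41, adjusted p = 0.143), with total-count scaling (adjusted p = 0.147), and when only the 2 groups compared were fitted (adjusted p = 0.136). In the other mutant comparisons its log2 fold change lay between -0.33 and 0.19, and none was called. The group means of EEF1D ran from 67.8 CPM in S181E control to 102.8 CPM in wild-type control, 1.52-fold, and all neighbours in their order overlapped.

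TPT1 (chr13:45333471-45341284, minus strand; ENSG00000133112.17) had 1362, 1936 and 1329 CPM in wild-type control and 1157, 1257 and 913.8 CPM in Y396E control. All Y396E libraries were lower, and TPT1 fell by 0.46 ± 0.16 on the log2 scale (SE; edgeR adjusted p = 0.0385). The value rested in part on wild-type control replicate 2, the highest of its group, without which it was -0.27 (adjusted p = 0.239). It was also not called without Y396E control replicate 1 (adjusted p = 0.0617) or 3 (-0.35, adjusted p = 0.164), with total counts (-0.19, adjusted p = 0.438), with all biotypes counted (-0.38, adjusted p = 0.0872) or with only the 2 groups fitted (adjusted p = 0.0895). S181E control had 1341, 1361 and 985.1 CPM, RQ control 1600, 2021 and 1266 CPM, and both overlapped with wild-type. In arsenite, no mutant differed from wild-type past the threshold, and the log2 fold changes of TPT1 were -0.09, -0.05 and 0.18 in S181E, Y396E and RQ.

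**Figure D2:**
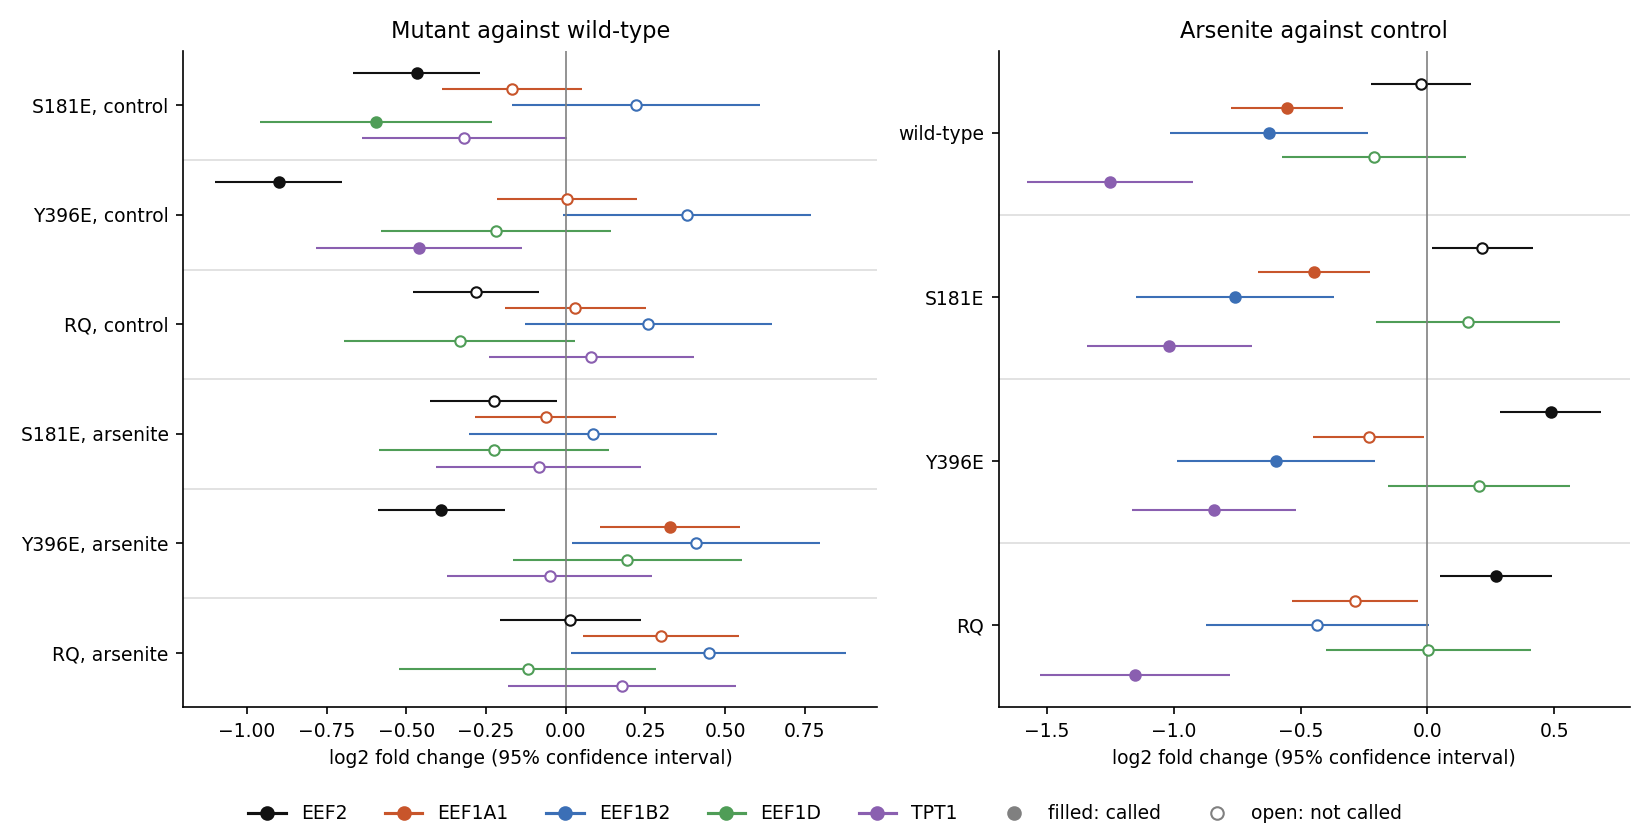
Log2 fold change (x axes) of the 5 tested members, with lines for 95% confidence intervals, for each mutant against wild-type (left) and for arsenite against control in each line (right). Filled circles were called by edgeR and open circles were not. EEF2 was at -0.90 in Y396E control, and TPT1 lay between -1.25 and -0.84 in arsenite.

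Arsenite was compared with control within each line to ask how stress changes what comes down. TPT1 fell in all 4 lines, EEF1B2 fell in wild-type, S181E and Y396E, and EEF1A1 fell in wild-type and S181E. EEF2 rose in Y396E and RQ and was not called in wild-type or S181E, and EEF1D was called in no line. In wild-type, 3 of 5 tested members were lower, where 31.8% of all tested genes were lower and 35.4% higher. In S181E, 3 of 5 were lower, against 34.6% lower and 33.3% higher. In Y396E, 2 were lower and 1 higher, against 33.8% lower and 31.3% higher. In RQ, 1 was lower and 1 higher, against 32.3% lower and 32.4% higher. The median log2 fold change of the members was -0.55, -0.45, -0.23 and -0.29 in wild-type, S181E, Y396E and RQ, and that of all genes 0.03, -0.00, -0.02 and -0.00.

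The share of mitochondrial rRNA and the epithelial markers moved with arsenite as well. The 7 epithelial markers summed to 671.6 to 1195 CPM in control and 1549 to 2451 CPM in arsenite mCherry libraries, and the 5 tested were higher in every line. The parental libraries had 2231 CPM in control and 3523 CPM in arsenite. Their part in the results of the members was not tested.

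TPT1 had 678.9, 689.5 and 591.2 CPM in wild-type arsenite, against 1362, 1936 and 1329 CPM in control. It was at 647.8, 643.9 and 560.0 CPM in S181E, at 649.5, 670.1 and 533.2 CPM in Y396E, and at 702.6 and 765.9 CPM in RQ. Every arsenite library was below every control library, whatever the line. On the log2 scale TPT1 fell by 1.25 ± 0.17 in wild-type (SE; edgeR adjusted p = 6.48e-07), by 1.02 ± 0.17 in S181E (1.02e-05), by 0.84 ± 0.17 in Y396E (1.10e-04) and by 1.154 ± 0.19 in RQ (1.41e-05). All 4 values were called under every alternative run, with values between -1.56 and -0.74. In its order over the 8 groups, from S181E arsenite at 617.2 CPM to RQ control at 1629 CPM (2.64-fold), RQ arsenite and Y396E control were neighbours without overlap, as were wild-type arsenite and RQ arsenite.

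EEF1A1 fell by 0.55 ± 0.11 on the log2 scale in wild-type (SE; edgeR adjusted p = 1.51e-04) and by 0.45 ± 0.11 in S181E (edgeR adjusted p = 0.00121), and in both lines the arsenite libraries lay below all control libraries. Its log2 fold change was -0.23 ± 0.11 in Y396E (edgeR adjusted p = 0.073) and -0.29 ± 0.13 in RQ (edgeR adjusted p = 0.0512). These passed without Y396E control replicate 3 (-0.33, adjusted p = 0.0162) and without RQ control replicate 3 (-0.37, adjusted p = 0.0163). The RQ value also passed with DESeq2 size factors (adjusted p = 0.0479), with the replicate block (0.0162) and in DESeq2's test (0.0242). With TMM factors from the genes not above their parental level, both passed, at -0.63 in Y396E (adjusted p = 2.62e-05) and -0.58 in RQ (3.14e-04). The means of EEF1A1 ran from 1984 CPM in S181E arsenite to 3075 CPM in RQ control, 1.55-fold, and only wild-type arsenite and RQ arsenite were neighbours without overlap.

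EEF1B2 had 241.0, 267.6 and 206.2 CPM in wild-type arsenite, 259.1, 280.8 and 220.9 CPM in S181E, 336.3, 326.6 and 266.0 CPM in Y396E, and 296.6 and 350.3 CPM in RQ. In wild-type, S181E and Y396E these lay below all control libraries of the line, and RQ overlapped. EEF1B2 fell by 0.62 ± 0.20 on the log2 scale in wild-type (SE; edgeR adjusted p = 0.00824), by 0.76 ± 0.20 in S181E (0.00183) and by 0.60 ± 0.20 in Y396E (0.0111). Without wild-type control replicate 2 the wild-type value was -0.48 (adjusted p = 0.0573). Without Y396E control replicate 2 or arsenite replicate 3 the Y396E value was -0.46 (adjusted p = 0.073) or -0.49 (0.0625). In RQ the log2 fold change was -0.43 (edgeR adjusted p = 0.092), and it passed without RQ control replicate 3 (-0.63, adjusted p = 0.0144). It also passed with no filter on low counts (adjusted p = 0.0328) and with the replicate block (-0.63, adjusted p = 0.0139). TMM factors from the genes not above their parental level gave a call as well (-0.71, adjusted p = 0.00267).

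EEF1D was at 86.6, 86.9 and 95.1 CPM in wild-type arsenite, 65.3, 74.3 and 91.0 CPM in S181E, 104.9, 101.8 and 93.9 CPM in Y396E, and 78.0 and 85.9 CPM in RQ. Its log2 fold change in arsenite was -0.21 in wild-type, 0.16 in S181E, 0.20 in Y396E and 0.00 in RQ, with adjusted p values of 0.320 or more in edgeR. Without S181E control replicate 2, the S181E value was 0.48 (adjusted p = 0.0152). With TMM factors from the genes not above their parental level, the wild-type value was -0.52 (adjusted p = 0.00567).

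EEF2 rose in Y396E by a log2 fold change of 0.49 ± 0.10 (SE; edgeR adjusted p = 2.14e-04) and in RQ by 0.27 ± 0.11 (edgeR adjusted p = 0.0385), and the arsenite libraries of both lines lay above all their control libraries. In S181E the libraries were apart in the same way, and the value was 0.22 ± 0.10 (edgeR adjusted p = 0.0621), and it was in wild-type -0.03 ± 0.10 (edgeR adjusted p = 0.837). With TMM factors from the genes not above their parental level, these values were 0.09 in Y396E (adjusted p = 0.591), -0.03 in RQ, which turned its sign, -0.17 in S181E and -0.35 in wild-type, which was then called lower. The RQ call was lost without RQ control replicate 2 (0.21, adjusted p = 0.135) or 3 (adjusted p = 0.0623), and without RQ arsenite replicate 1 (0.150) or 2 (0.0906). It was also lost when only the 2 groups compared were fitted (adjusted p = 0.156) and with DESeq2, where the change was under 20% (0.25, adjusted p = 0.014). The S181E value passed without S181E control replicate 3 (0.27, adjusted p = 0.0359). The ratio of EEF2 to EEF1A1 counts was higher in arsenite than in control in all 4 lines without overlap, with exact permutation p = 0.1 where both groups had 3 libraries and 0.2 in RQ, where 2 against 3 libraries were compared. This ratio also rises when EEF1A1 falls. In wild-type the mean of EEF2 was 6437 CPM in control and 6376 CPM in arsenite, while that of EEF1A1 went from 3012 to 2067 CPM.

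Whether a mutant's difference from wild-type changed with arsenite was tested by the interaction in the same model. In edgeR 0 of 5 members were called for S181E, Y396E or RQ, against 0.389%, 2.85% and 0.0687% of all tested genes. At an unadjusted p under 0.05 there were 0, 1 and 0, and DESeq2 called 0, 1 and 0. The 1 was EEF2 in Y396E, with an interaction of 0.51 ± 0.14 on the log2 scale (SE; edgeR adjusted p = 0.0536). The Y396E deficit of EEF2 was thus -0.90 in control and -0.39 in arsenite, a difference that missed the threshold here and passed without wild-type control replicate 2 (0.60, adjusted p = 0.0207). TPT1 had interactions of 0.23, 0.41 and 0.10, and none passed (edgeR adjusted p = 0.708, 0.372 and 0.936). The Y396E value of EEF2 was not particular to it. The median Y396E interaction was 0.41 over the tested members and 0.53 over 75 tested cytosolic ribosomal protein mRNAs, where that of all tested genes was -0.06.

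The parental libraries give what the beads held without the fusion, with 1 library per treatment and so with no test. In control, wild-type was over parental by 3.88-fold for EEF2, 2.16-fold for TPT1, 1.496-fold for EEF1A1, 1.31-fold for EEF1B2 and 0.917-fold for EEF1D. The counting interval of the EEF2 ratio was 3.73 to 4.04, from 2458 counts in the parental library. EEF1E1 had 0 parental counts there and was at least 2.49-fold higher in wild-type, against a floor of 3 counts in that library. The median over all tested genes was 3.43-fold, and EEF2 stood at the 51.8 percentile. Of the 5 tested members, 0 were at least 4-fold over parental, where 49% of all tested genes were. That 49% was computed without the floor, so genes at 0 parental counts were included. The median and the percentile used the floor of 3 counts, and cannot be set beside the 49% directly. Without wild-type control replicate 2 EEF2 was at least 4-fold over parental, at 4.11-fold. With total-count scaling EEF2 was 1.67-fold over parental, and EEF1A1, EEF1B2 and TPT1 turned to below it, at 0.646, 0.569 and 0.937-fold. Set against the deeper parental arsenite library instead, EEF2 was 2.26-fold over it in wild-type control. There EEF1A1 and EEF1E1 turned to below it, at 0.776 and 0.394-fold.

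In arsenite, EEF2 was 2.24-fold over parental in wild-type, at the 78.0 percentile, where the median of all genes was 1.14-fold. The others were below parental, with 0.872-fold for TPT1, 0.759-fold for EEF1B2, 0.533-fold for EEF1A1 0.534-fold for EEF1E1 and 0.283-fold for EEF1D, which was at the 1.64 percentile. EEF1D had 316.1 CPM in the parental arsenite library and 112.0 CPM in the parental control one. At least 4-fold over parental were 0 of 5 members, against 9.18% of all genes, again computed without the floor. Across the lines the EEF2 ratio was 2.06-fold in Y396E, 2.79-fold in S181E and 3.19-fold in RQ in control, and 1.67, 1.92 and 2.25-fold in arsenite. Set against the parental control library instead, wild-type arsenite was 3.84-fold over it for EEF2. There EEF1A1 turned to 1.03-fold and EEF1E1 to at least 3.38-fold against the floor.

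**Figure D3:**
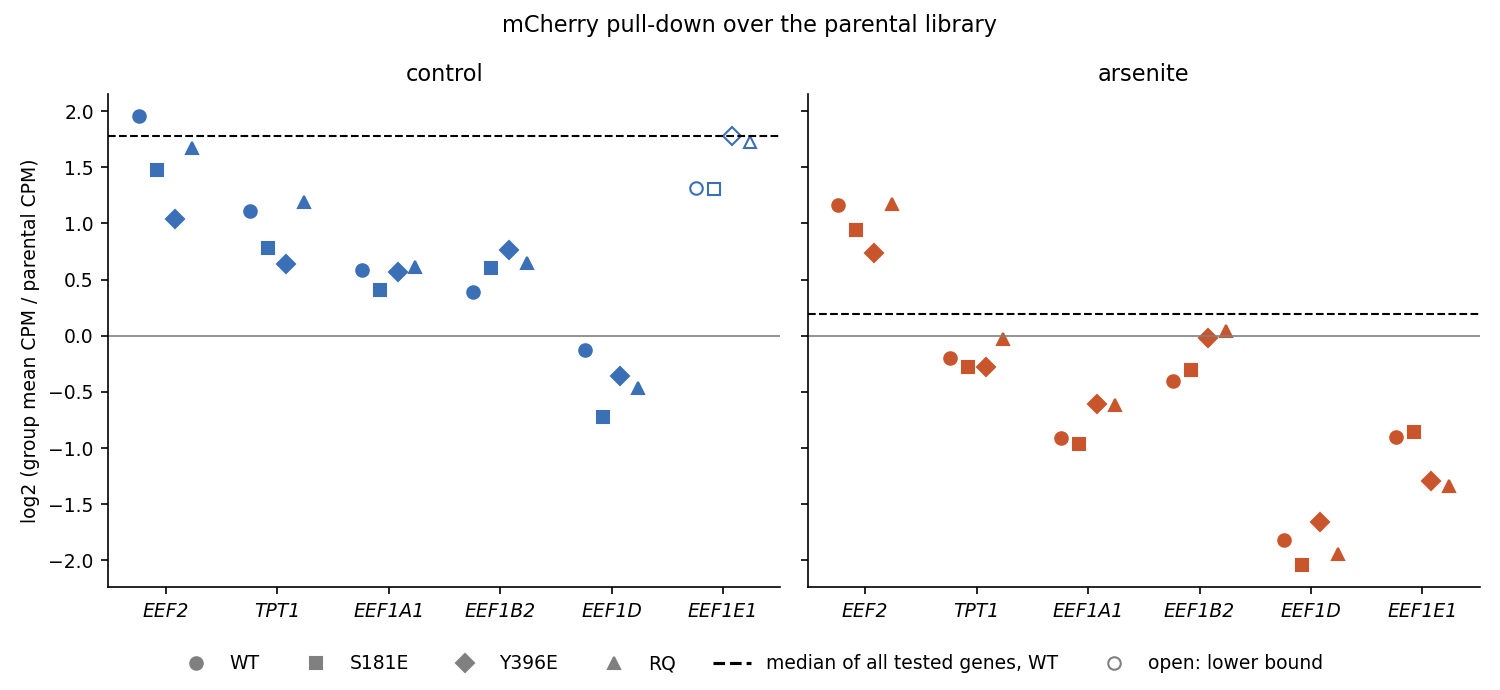
Log2 ratio of a group's mean CPM to that of parental cells under the same treatment (y axis) for 6 members (x axis), in control (left) and arsenite (right). Symbols are the 4 lines, open symbols are lower bounds for EEF1E1 against 3 counts, the dashed line is the median of all tested genes in wild-type, and there is no replicate of the parental libraries. With this scaling EEF2 was above parental in all 8 groups, and EEF1D below it, with a counting interval that includes a ratio of 1 in wild-type control.

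Over the 8 groups, the log2 mean levels of EEF1A1, EEF1B2 and TPT1 moved together, with Pearson r of 0.91 for EEF1A1 with EEF1B2, 0.84 for EEF1A1 with TPT1 and 0.81 for EEF1B2 with TPT1. EEF2 went apart from them, with r of -0.36 with EEF1A1 and -0.61 with EEF1B2. These are descriptions over 8 points that share the arsenite effect and the scaling of their libraries. The tested genes with the pattern most like the centred mean of EEF1A1, EEF1B2, EEF1D and EEF2 over the 8 groups were RAB6B (0.97), NUDT14 (0.96), FRS3 (0.96), UCP2 (0.95), PHLDA2 (0.95), ETHE1, FIBCD1 and LMTK3 (0.94 each). That mean followed EEF1A1 (r of 0.89) and EEF1B2 (0.64) more than EEF1D (0.43), and hardly EEF2 (0.08), so these genes resemble mainly the first 2. None of these 8 was among the 8 most alike over the 23 single libraries. Over those libraries RAB6B had an r of 0.01, and the others from 0.66 (FRS3) to 0.87 (ETHE1).

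The other TOP mRNAs give the setting for the members. Of 75 tested cytosolic ribosomal protein mRNAs, 72 were lower in arsenite in wild-type, 61 in S181E, 44 in Y396E and 70 in RQ, with median log2 fold changes of -1.04, -0.72, -0.56 and -0.91. The lowest in each line was RPL41, at 176.6 CPM in wild-type arsenite and 905.6 CPM in control. Of all tested genes, 31.8, 34.6, 33.8 and 32.3% were lower in arsenite in wild-type, S181E, Y396E and RQ. In control, 12 of the 75 were lower and 0 higher in S181E, against 8% and 12.8% of all genes. For Y396E in control, 12 were lower and 0 higher, against 12.7% and 16.2%. Their median log2 fold changes were -0.38 in S181E and -0.25 in Y396E, where all tested genes had 0.05 in both. The tested members had -0.32 and -0.22. In Y396E arsenite, 4 of the 75 were lower and 7 higher, against 19.4% and 13.1% of all genes. Their median there was 0.295, against 0.01 for all tested genes and 0.19 for the tested members.

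Among 11 tested TOP mRNAs that encode no ribosomal protein, 7 were lower in arsenite in wild-type, 5 in S181E, 4 in Y396E and 6 in RQ. The shares of all tested genes lower there were 31.8, 34.6, 33.8 and 32.3%. The poly(A)-binding protein mRNA PABPC1 had the lowest fold change of that list in each mutant comparison with a call. It was at 74890 ± 5027 CPM in wild-type control (SD, n = 3), at 27850 ± 1564 CPM in S181E and at 18540 ± 1831 CPM in Y396E. After arsenite it was at 28550 ± 963.8 CPM in wild-type, 12060 ± 752.6 CPM in S181E and 7254 ± 274.6 CPM in Y396E. Like EEF2, PABPC1 was lower in Y396E in both treatments, at log2 fold changes of -2.00 and -1.95. HNRNPA1, an RNA-binding protein mRNA of the same list, rose in arsenite in every line, by a log2 fold change of 0.60 in wild-type.

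Of 5 tested elongation and hypusine factors outside the set, 1 was lower and 2 higher in arsenite in wild-type. There 31.8% of all tested genes were lower and 35.4% higher. EEF1A2, the tissue-restricted form of eEF1A, had 95.9 ± 8.1 CPM in wild-type control and 204.6 ± 13.6 CPM in arsenite (SD, n = 3), and rose by a log2 fold change of 1.08 in wild-type, 1.68 in S181E, 1.54 in Y396E and 1.38 in RQ. Both parental libraries had more of it, at 315.9 and 397.2 CPM. EEFSEC, the elongation factor for selenocysteine, rose in all 4 lines, by 0.69 to 1.09. EIF5A2, a form of the hypusine-bearing factor that helps stalled ribosomes, fell in all 4 lines, by 1.29 in wild-type and 1.74 in S181E. Its main form EIF5A passed in Y396E and RQ, where it rose by 0.34 and 0.46, and SECISBP2, which works with EEFSEC, fell by 0.37 in Y396E. Of 4 tested mitochondrial elongation factors, 3 rose in wild-type, S181E and Y396E and 2 in RQ, led by TUFM, which went from 77.2 to 156.0 CPM in wild-type. GUF1 fell in RQ, by 0.42. The shares of all tested genes higher in arsenite were 35.4, 33.3, 31.3 and 32.4% in wild-type, S181E, Y396E and RQ.

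The multisynthetase complex, for which EEF1E1 encodes a scaffold, was listed with VARS1, whose enzyme binds eEF1B. Of these 11 genes, 8 were higher in arsenite in wild-type, 9 in S181E, 10 in Y396E and 7 in RQ. The shares of all tested genes higher there were 35.4, 33.3, 31.3 and 32.4%. VARS1 rose from 106.1 ± 8.9 to 628.8 ± 37.1 CPM in wild-type (SD, n = 3), and QARS1 fell by 0.34 on the log2 scale in wild-type and by 0.38 in RQ. Of 5 tested termination, recycling and rescue factors, 3 were higher in S181E control, 4 in Y396E control and 2 in RQ control. The shares of all tested genes higher there were 12.8, 16.2 and 3.51%. ETF1, the termination factor that reads stop codons, rose from 179.0 ± 6.1 CPM in wild-type control to 285.8 ± 10.45 CPM in S181E and 282.9 ± 32.3 CPM in Y396E. The ribosome recycling factor ABCE1 rose by 0.70 and 0.56 in those lines.

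Of 12 tested enzymes that modify elongation factors, 4 were lower and 1 higher in arsenite in wild-type, where 31.8% of all tested genes were lower and 35.4% higher. The diphthamide co-chaperone DNAJC24 fell from 23.1 to 7.25 CPM, and DPH1, which starts diphthamide synthesis on eEF2, rose from 13.9 to 20.5 CPM. The lysine methyltransferase EEF1AKMT3 was lower in Y396E by 0.61 in control and 0.87 in arsenite. Among 11 regulators of TOP mRNAs, 4 were lower and 3 higher in arsenite in wild-type, shares near those of all genes, and there EIF4EBP2 fell by 1.34 and TIA1 rose by 1.49 on the log2 scale. MTOR had the highest log2 fold change of that list in S181E, Y396E and RQ, at 1.61, 1.49 and 1.51.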

How the data were processed

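RIP-seq counts of 25 libraries were used. The authors aligned reads to hg38 with STAR (2.7.11b per the submitters' processing notes) and counted them on exons with featureCounts (Subread 2.0.6), reverse-stranded, leaving out reads that mapped to several places or fell on 2 genes. The values they deposited are raw counts per gene, without molecular identifiers, so counting intervals and floors cover counting error only. Symbols and biotypes came from GENCODE release 44 by Ensembl identifier, and 545 identifiers were not found.

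TMM factors, CPM and quasi-likelihood tests were computed with edgeR 4.0.16 (R 4.3.3) in 1 model of the 8 mCherry groups, for the 8734 protein-coding genes above 10 CPM in 11.5 or more of the 23 libraries, with Benjamini-Hochberg adjustment over all of them. The filter, test and thresholds followed the authors' methods. The parental libraries entered no test. DESeq2 1.42.0 was an alternative. Scripts were tested on simulated data. Members and gene lists were chosen with earlier results of these data known. Named genes were the members, the called genes at both ends of each fixed list, lists of under 8 genes, and the 8 genes nearest in pattern.

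Same-numbered libraries were judged to be pairs only for S181E and wild-type in arsenite, where the correlations of their deviations from the group means lay between 0.29 and 0.4. The source of that judgement is this correlation, and p-values measure the spread between dishes. The main model held no replicate block in any comparison, this one included. The block was fitted only as an alternative, in every comparison. No pair of libraries held identical counts.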

Additional observations from a re-analysis of the deposited data

Results flagged for a closer look

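Interactions of mutant and arsenite passed in edgeR for genes of 2 lists beside the members. For Y396E, 3 of 75 tested cytosolic ribosomal protein mRNAs were higher and 3 of 5 tested termination, recycling and rescue factors lower. For S181E, 1 of those 5 factors was lower. The shares of all tested genes called were 2.85% for Y396E and 0.389% for S181E. RPL23A, the highest of the 3 ribosomal protein mRNAs, had an interaction of 0.93 on the log2 scale in Y396E (edgeR adjusted p = 0.0258). For the termination factor ETF1 it was -0.61 in S181E (adjusted p = 0.0333) and -0.55 in Y396E (adjusted p = 0.0178). For the recycling factor ABCE1 it was -0.81 in Y396E (adjusted p = 0.00488), and for the ribosome rescue factor HBS1L -0.58 in Y396E (adjusted p = 0.0277).

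The gene ENSG00000255508, which covers nearly all of EEF1G on the same strand, had a median of 1.197 CPM over the 23 mCherry libraries, from 7 to 86 counts. It was at 0 counts in both parental libraries, where a floor of 3 counts is 2.02 CPM (control) or 0.130 CPM (arsenite). Reads on the shared bases were dropped, so these counts are no measure of EEF1G.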

How the results depend on the processing

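Of the values of single members and alternatives, 1180 were compared, and 55 that were not called changed sign. Among the called ones 1 turned its sign, EEF2 in RQ arsenite against control at -0.0294 with TMM factors from the genes not above their parental level. That scaling also gave 5 called members for arsenite in wild-type (3 otherwise) and 1 for Y396E in arsenite (2). Total counts gave 1 for S181E in control (2). Fitting only the groups compared gave 0 for S181E and 1 for Y396E in control (2 each), 2 for RQ in arsenite (0) and 1 for arsenite in RQ (2). Counting all biotypes gave 1 for Y396E in control. DESeq2's test gave 1 for RQ in control (0). The cause was not tested. The Y396E interaction gave 1 (0) with DESeq2 size factors, total counts, the replicate block and DESeq2's test, EEF2 each time, with adjusted p values from 0.000289 to 0.0411. The replicate block gave 1 for RQ in control (0), lost EEF2 (adjusted p = 0.0553) and added EEF1A1 and EEF1B2 for arsenite in RQ, and moved no call for S181E in arsenite, where the numbers pair the libraries. Elsewhere same-numbered libraries were not taken as pairs, though many of their correlations were above 0, within a range from -0.12 to 0.456. With the block, RQ in control had 415 genes lower and 618 higher, against 247 and 307 without it.

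Leaving out 1 library gave 1 to 2 called members for S181E in control, 1 to 2 for Y396E in control, 0 to 1 for RQ in control, 0 to 0 for S181E and RQ in arsenite, and 1 to 2 for Y396E in arsenite. For arsenite it gave 2 to 3 in wild-type, 3 to 4 in S181E, 2 to 4 in Y396E and 1 to 3 in RQ. Interactions gave 0 to 0 in S181E and RQ and 0 to 1 in Y396E, and members at least 4-fold over parental 0 to 1 in control and 0 to 0 in arsenite. Over 23 libraries, 0 of the 8 pattern neighbours remained.

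Scaling sets the zero of these comparisons. For Y396E in control, the median log2 fold change of all tested genes was 0.05 with TMM, 0.32 with total counts and -0.13 with TMM on genes not above parental. Of the called genes, 55.9, 88.3 and 23.8% were then higher. For Y396E in arsenite these shares were 40.4, 75.3 and 7.52%, for S181E in control 61.6, 86.5 and 50.2%, and for arsenite in wild-type 52.7, 55.0 and 33.9%. Depth limits EEF1E1 and every ratio to the shallow parental control.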
